A study of Homo sapiens with 6 samples.

Results

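The inhibitor of apoptosis (IAP) genes BIRC2, BIRC3, XIAP and BIRC6, the IAP antagonist DIABLO, the NF-κB-responsive gene IER3, the TNFAIP8 family genes TNFAIP8 and TNFAIP8L1 and the stress gene GADD45B were examined in U251, a long-established cell line from a human glioblastoma. These 9 genes were chosen by name, and the 9 names matched 10 of the 58735 genes listed, because DIABLO was listed under 2 gene identifiers. Gene expression was measured by RNA sequencing in 3 libraries from cells given sterile deionized water (NC group) and 3 libraries from cells given recombinant human TNF-α at 10 ng/mL (TNF-α group), both for 24 h. All libraries came from this 1 line, for which the labels name no genetic change, and the replicates were described as independent biological ones. All values below are FPKM, the fragments of a gene scaled to exonic length and library size, as computed by the authors. The library size they imply was 0.693 and 0.759 times the reads in genes in TNF-α replicates 2 and 3, against 0.925 to 0.959 times elsewhere. FPKM in these 2 libraries are therefore higher than plain scaling to reads in genes would give.

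TNF-α binding to its receptor assembles a complex in which the adaptor TRAF2 brings in the ubiquitin ligases cIAP1 and cIAP2, the products of BIRC2 and BIRC3. Their ubiquitin chains on RIPK1 help to activate NF-κB and hold back assembly of the death-inducing complex, and NF-κB in turn switches on genes that protect the cell. XIAP blocks caspases directly, BIRC6 is a very large ubiquitin-conjugating enzyme that restrains caspases, and DIABLO (also called SMAC) leaves mitochondria to displace IAPs from caspases. IER3 is an immediate early gene of the NF-κB response, TNFAIP8 is a TNF-α-inducible survival gene with the lipid-binding relative TNFAIP8L1, and GADD45B binds the kinase MAP2K7 and dampens JNK signalling.

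Reads in genes, recovered from FPKM and exonic length, numbered 31992167 to 37897044 per library. The astrocytic and glioma markers VIM (325 to 974 FPKM), CD44 (133 to 141 FPKM) and SOX2 (22.6 to 66.3 FPKM) were present in every library, whereas S100B reached at most 8 reads. GFAP, the astrocyte filament gene, was at 7.10 to 9.47 FPKM under water and at 1.58 to 2.60 FPKM under TNF-α. Of 6 markers of other cell types, 2 or 3 were at 0 in each library, PTPRC among them throughout, and the sum of the 6 ranged from 0.767 to 0.999 FPKM under water and from 0.761 to 1.80 FPKM under TNF-α. The myeloid marker CD14 was the highest of them in every library, at 0.528 to 1.555 FPKM and at most 76 reads. The endothelial marker CDH5 was at 0.0819 to 0.332 FPKM and at most 49 reads. The part of these markers in the results below was not tested. TNF-α replicates 2 and 3 stood apart from the other 4 libraries: genes with over 8 kb of exon took 16.6% and 17.9% of their reads, against 28.8% to 29.1% elsewhere. Both belong to the TNF-α group, so that for a long or a short gene the treatment and the difference of these libraries cannot be told apart from their values alone. For this reason the 3 treated libraries are given separately throughout. In bulk RNA, fewer cells that express a gene and less RNA per cell cannot be told apart either.

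BIRC3 and BIRC2 lie side by side on chromosome 11 of GRCh38, on the plus strand, BIRC3 from 102317450 to 102339403 and BIRC2 from 102347211 to 102378670, with 7807 bases between them. The 250 bases before the RefSeq transcription start (GRCh38.p14) are shown for this pair because the neighbours differed in the size of their rise, and for GADD45B because it held as many matches as BIRC3 without passing the test. The windows are chr11:102317234-102317483 for BIRC3, chr11:102346964-102347213 for BIRC2 and chr19:2475877-2476126 for GADD45B, all on the plus strand. Capitals mark matches to the κB consensus of 10 bases, searched on both strands, and overlapping matches at the same place were counted once.
BIRC3: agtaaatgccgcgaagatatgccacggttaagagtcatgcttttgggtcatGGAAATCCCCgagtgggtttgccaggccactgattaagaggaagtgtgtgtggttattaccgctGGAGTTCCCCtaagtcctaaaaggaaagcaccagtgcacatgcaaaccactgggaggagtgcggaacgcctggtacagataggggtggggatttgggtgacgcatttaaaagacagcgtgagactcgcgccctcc
BIRC2: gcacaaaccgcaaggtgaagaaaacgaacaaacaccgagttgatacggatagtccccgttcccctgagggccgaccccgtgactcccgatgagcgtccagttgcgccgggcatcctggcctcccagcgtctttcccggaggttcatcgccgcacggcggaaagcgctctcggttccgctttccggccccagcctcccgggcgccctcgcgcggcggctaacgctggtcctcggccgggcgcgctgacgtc
GADD45B: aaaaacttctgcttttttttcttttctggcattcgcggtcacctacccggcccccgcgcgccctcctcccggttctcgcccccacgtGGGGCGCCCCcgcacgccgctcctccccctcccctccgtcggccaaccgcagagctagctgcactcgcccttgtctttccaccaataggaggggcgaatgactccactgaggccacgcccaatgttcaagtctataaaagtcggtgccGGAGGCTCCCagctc
The BIRC3 window held 2 matches, starting 199 and 135 bases before the start site, and neither of the 2 BIRC2 windows held one. The 2 matches of GADD45B started 163 and 15 bases before its start site. A window was listed for 8 of the 9 genes, which had 17 windows in all, and 3 of these held a match, those of BIRC3 and GADD45B and 1 of the 2 windows of BIRC6. Across all 35116 windows, 9.96% held a match. These are matches of letters only, and nothing is drawn from them about binding.

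The IAP genes were examined first. BIRC3 rose most among them. BIRC3 (ENSG00000023445, 7518 bases of exon) had 2.80, 3.06 and 2.87 FPKM in NC replicates 1 to 3 and 28.7, 16.8 and 17.3 FPKM in TNF-α replicates 1 to 3. Every treated library was far above every NC library, and TNF-α replicate 1 was the highest. The means were 2.91 ± 0.132 and 21.0 ± 6.74 FPKM (SD, n = 3 per group), that is 9.87, 5.77 and 5.96 times the NC mean in the 3 treated libraries, and the values rested on 694 to 761 reads in the NC group and 3166 to 6939 in the TNF-α group. On the log2(FPKM + 1) scale, which is used for every fold change below and shrinks the change of a gene with low FPKM, the difference was 2.45 with a standard error (SE) of 0.22, and limma gave an adjusted p of 0.00996. The exact two-sided permutation p was 0.1, the smallest that 3 against 3 libraries allow. The direction held in all 19 alternative analyses (2.20 to 2.93), but the call depended on which library was left out. The adjusted p was 0.103, 0.103 and 0.108 without NC replicates 1, 2 and 3 and 0.0656 without TNF-α replicate 3. BIRC3 still passed when TNF-α replicate 2 was dropped (limma adjusted p 0.0359). It also passed without TNF-α replicate 1 (4.3e-06), where 79.4% of all genes did. With TNF-α replicate 1 as the only treated library, the log2 difference was 2.93.

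BIRC2 (ENSG00000110330, 4532 bases of exon) was the most abundant of the 9 genes in the NC group. It measured 31.3, 30.1 and 29.01 FPKM in water-treated cells, against 63.9, 45.4 and 48.3 FPKM in TNF-α-treated cells (replicates 1 to 3). The groups did not overlap, and TNF-α replicate 1 was again the highest. The means were 30.1 ± 1.13 and 52.5 ± 9.96 FPKM (SD, n = 3 per group), with a log2 difference of 0.77 (SE 0.17). With an adjusted p of 0.138 it did not pass the threshold, and the exact permutation p was 0.1. Under TPM the groups overlapped, and the log2 difference was 0.28 (limma adjusted p 0.514). BIRC2 passed in 3 of 19 alternatives. It did so when TNF-α replicate 1 was left out (adjusted p 0.000139), as 79.4% of all genes did. It also passed with TNF-α replicates 2 and 3 left out (0.00121, with 6.03% of all genes) and after a correction for GC content and exonic length (0.00838, with 2.09%).

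A ratio of 2 genes in the same library does not depend on the library size, so BIRC3 was also set against BIRC2. The FPKM ratio was 0.0896, 0.102 and 0.0991 in water-treated cells, against 0.449, 0.370 and 0.359 in treated cells. It was therefore 4.06 times as high in the TNF-α group (0.0967 ± 0.00631 against 0.393 ± 0.0493, SD, n = 3 per group), with no overlap. BIRC3 made up 5.06% to 5.43% of the summed FPKM of BIRC2, BIRC3, XIAP and BIRC6 in the NC libraries and 23.0% to 24.8% in the TNF-α libraries, and this share was nearly the same in the 3 treated libraries. The share of XIAP was 21.1% to 24.9% in the NC group and 9.90% to 10.7% in the TNF-α group. The share of BIRC6 was 17.1% to 18.5% in the NC group. It was 9.44% in TNF-α replicate 1, against 2.87% and 3.16% in the other treated libraries. A lower share is not a lower level. In TNF-α replicate 1 the FPKM of XIAP and BIRC6 were 1.00 and 1.13 times their NC means. The summed FPKM was 116 there, against 52.9 to 57.2 in the NC libraries. Ratios of genes of unequal length still carry the shift of the last 2 libraries, and these ratios were chosen after their values were seen.

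**Figure D1:**
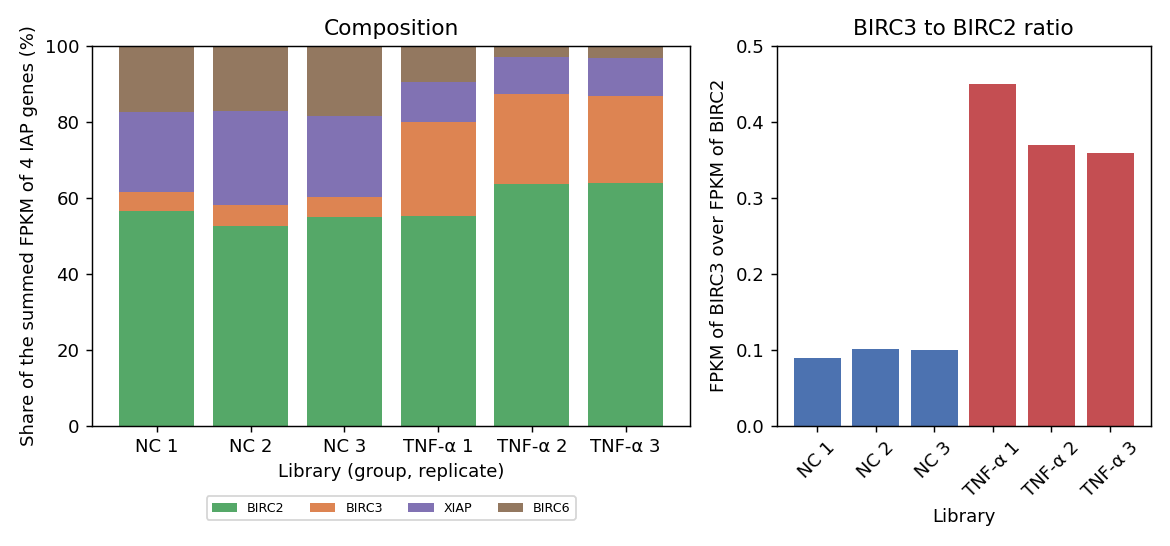
The stacked bars give the share (%) of BIRC2, BIRC3, XIAP and BIRC6 in their summed FPKM in each of the 6 libraries, and the plain bars give the FPKM of BIRC3 over that of BIRC2. The BIRC3 share was 5.06% to 5.43% in NC and 23.0% to 24.8% in TNF-α libraries, and the ratio was 0.0896 to 0.102 and 0.359 to 0.449.

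XIAP and BIRC6 were lower than in every NC library only in TNF-α replicates 2 and 3, and neither passed the test. XIAP (ENSG00000101966, chromosome X, 123859724 to 123913979, 9025 bases of exon) measured 11.7, 14.2 and 11.2 FPKM in water-treated cells, against 12.4, 7.07 and 7.51 FPKM in TNF-α-treated cells (replicates 1 to 3). TNF-α replicate 1 lay within the NC range and the other 2 below it. The log2 difference was -0.45 (SE 0.23, adjusted p 0.201, exact permutation p 0.3). BIRC6 (ENSG00000115760, chromosome 2, 32357028 to 32618899), with 17858 bases of exon the longest of the 9 genes, measured 9.58, 9.80 and 9.79 FPKM in water-treated cells, against 10.95, 2.05 and 2.39 FPKM in TNF-α-treated cells (replicates 1 to 3). TNF-α replicate 1 was above every NC library, whereas replicates 2 and 3 were at 0.211 and 0.246 times the NC mean. The log2 difference was -1.11 with an SE of 0.52 (adjusted p 0.196, exact permutation p 0.4). In TNF-α replicate 1 alone, the log2 ratio to the NC mean was 0.010 for XIAP and 0.16 for BIRC6, so the direction of both rested on replicates 2 and 3.

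DIABLO was low under both identifiers. ENSG00000184047 (chromosome 12, 122207663 to 122226568) measured 0.306, 0.360 and 0.326 FPKM in water-treated cells, against 0.510, 0.279 and 0.188 FPKM in TNF-α-treated cells (replicates 1 to 3), from 31 to 111 reads. The groups overlapped, and the exact permutation p was 0.9. ENSG00000284934 (chromosome 12, 122207662 to 122227534) had at most 3 reads in any library and 0 in 3 of the 6. A count of 3 reads corresponds to 0.0353 to 0.0526 FPKM of this gene, and with so few reads no difference could have been detected. Both fell under the filter of 1 FPKM in 3 libraries and were not tested. The 2 gene models share exons on the minus strand, and exons of other listed genes covered 30.4% of the exonic length of the first and 85.4% of the second. How reads in shared exons were counted is not given in the sources used here, so the level of DIABLO is uncertain.

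IER3 had the largest fitted log2 difference of the 9 genes, but not after the GC and length correction (2.61 against 2.88 for BIRC3) or in TNF-α replicate 1 alone (2.49 against 2.93). IER3 (ENSG00000137331, chromosome 6, 30743199 to 30744554, minus strand, 1 merged exon of 1356 bases) measured 4.90, 7.04 and 6.18 FPKM in water-treated cells, against 38.3, 85.8 and 70.9 FPKM in TNF-α-treated cells (replicates 1 to 3). Every treated library was above every NC library, and TNF-α replicate 1 was the lowest of the treated ones, the reverse of the order seen in BIRC2 and BIRC3. The means were 6.04 ± 1.08 and 65.0 ± 24.3 FPKM (SD, n = 3 per group), from 240 to 313 reads in the NC group and 1668 to 3015 in the TNF-α group. The log2 difference was 3.16 (SE 0.32), which placed IER3 at rank 10 of the 12136 genes tested, with a limma adjusted p of 0.0128. The exact permutation p was again 0.1. Over 19 alternative analyses the log2 difference ranged from 2.49 to 3.50. The adjusted p was 0.112, 0.111 and 0.125 without NC replicates 1, 2 and 3 and 0.109 without TNF-α replicate 3. IER3 still passed when TNF-α replicate 2 was dropped (limma adjusted p 0.0426). It also passed without TNF-α replicate 1 (6.8e-06), where 79.4% of all genes did. Exons of IER3-AS1 on the other strand covered 26.5% of its exonic length, and since the use of strand in counting is not given in the sources used here, reads of the pair cannot be told apart.

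The TNFAIP8 family was examined next. TNFAIP8 (ENSG00000145779, chromosome 5, 119268692 to 119399688, 9591 bases of exon) measured 0.889, 1.11 and 1.04 FPKM in water-treated cells, against 1.94, 1.91 and 1.61 FPKM in TNF-α-treated cells (replicates 1 to 3). The groups did not overlap, and the 3 treated libraries lay close together at 1.92, 1.89 and 1.59 times the NC mean. The log2 difference was 0.49 (SE 0.12, adjusted p 0.164, exact permutation p 0.1), which did not pass the threshold, and with a pseudocount of 0.1 in place of 1 it was 0.79 (adjusted p 0.196). With NC replicate 1 under 1 FPKM, TNFAIP8 met the filter only through the treated libraries, where it was higher. Its test and the counts that hold it are therefore a description. TNFAIP8L1 (ENSG00000185361, chromosome 19, 4639518 to 4655568, 6667 bases of exon) measured 7.83, 7.64 and 7.82 FPKM in water-treated cells, against 6.45, 9.43 and 8.75 FPKM in TNF-α-treated cells (replicates 1 to 3). TNF-α replicate 1 lay below the NC libraries and the other 2 above them. Exons of MYDGF and another gene on the opposite strand covered 10.0% of its exonic length, and their reads cannot be told apart. The log2 difference was 0.06 (SE 0.16), with an adjusted p of 0.783 by limma and a p of 0.8 by the exact permutation test. Its sign changed under TPM (-0.42) and after the GC and length correction (-0.12). Relative to the median of all genes, which TPM moved to -0.42, the TPM value was -0.01.

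GADD45B (ENSG00000099860, chromosome 19, 2476122 to 2478259, plus strand, 2138 bases of exon) measured 25.3, 22.6 and 25.9 FPKM in water-treated cells, against 22.9, 50.6 and 48.6 FPKM in TNF-α-treated cells (replicates 1 to 3). TNF-α replicate 1 lay within the NC range, and replicates 2 and 3 were at 2.06 and 1.97 times the NC mean. The log2 difference was 0.62 (SE 0.31), with an adjusted p of 0.201 by limma and a p of 0.3 by the exact permutation test. When corrected for GC content and length, the difference was -0.0014 (adjusted p 0.992). The IER3 to GADD45B ratio, between 2 short genes of similar GC content (58.5% and 60.2%), was 0.193, 0.311 and 0.238 in water-treated cells, against 1.67, 1.69 and 1.46 in treated cells. IER3 was thus below GADD45B in every NC library and above it in every treated one.

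**Figure D2:**
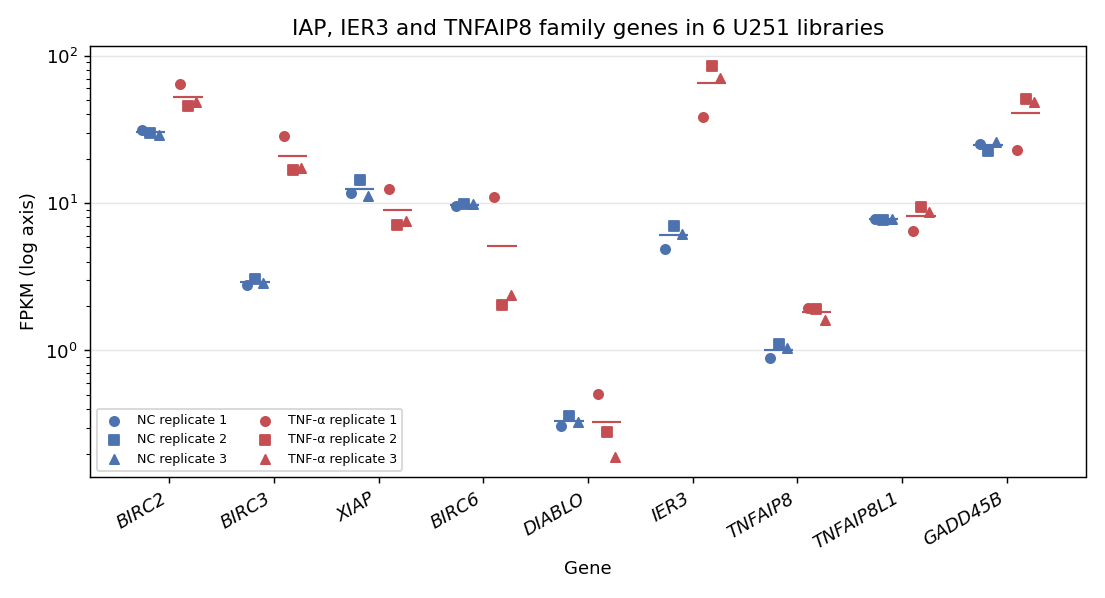
Each point is the FPKM (log axis) of a gene in 1 library, NC in blue and TNF-α in red, with the symbol giving the replicate and the short line the group mean. DIABLO is ENSG00000184047. The groups did not overlap for BIRC2, BIRC3, IER3 and TNFAIP8, and TNF-α replicate 1 lay apart from replicates 2 and 3 for all 8 genes tested but TNFAIP8.

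Of the 10 listed genes, 8 passed the filter and were tested. An adjusted p under 0.05 was reached by 2 of them, BIRC3 and IER3, both higher, against 1.01% of all 12136 genes tested, or 0.717% higher and 0.297% lower. Without adjustment 4 of the 8 had a p under 0.05, BIRC2 and TNFAIP8 besides, against 24.2% of all genes. On the FPKM scale the groups did not overlap in 4 of the 8, all higher, against 14.8% of all genes that were higher without overlap and 15.3% that were lower. TNFAIP8, which met the filter only through the treated libraries, is in both of these counts of 4, so they are a description. The median log2 difference of the 8 was 0.55, against 0.04 over all genes tested, with 6 above and 2 below 0. TNFAIP8 is in this median and among the 6 as well, so both are a description. The share of all genes above 0 was not computed. Without TNF-α replicate 1 all 8 passed, but so did 79.4% of all genes, and of the 8 genes XIAP and BIRC6 were lower. Without TNF-α replicates 2 and 3, an analysis chosen after seeing the data in which the single treated library was assumed to vary like the NC group, BIRC2, BIRC3 and IER3 passed, against 6.03% of all genes. None of the 8 passed without NC replicate 1, 2 or 3 or without TNF-α replicate 3, where 0.14%, 0.0824%, 0.107% and 0.165% of all genes did. Both BIRC3 and IER3 passed without TNF-α replicate 2 (0.346% of all genes), and IER3 alone under TPM (0.478%).

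**Figure D3:**
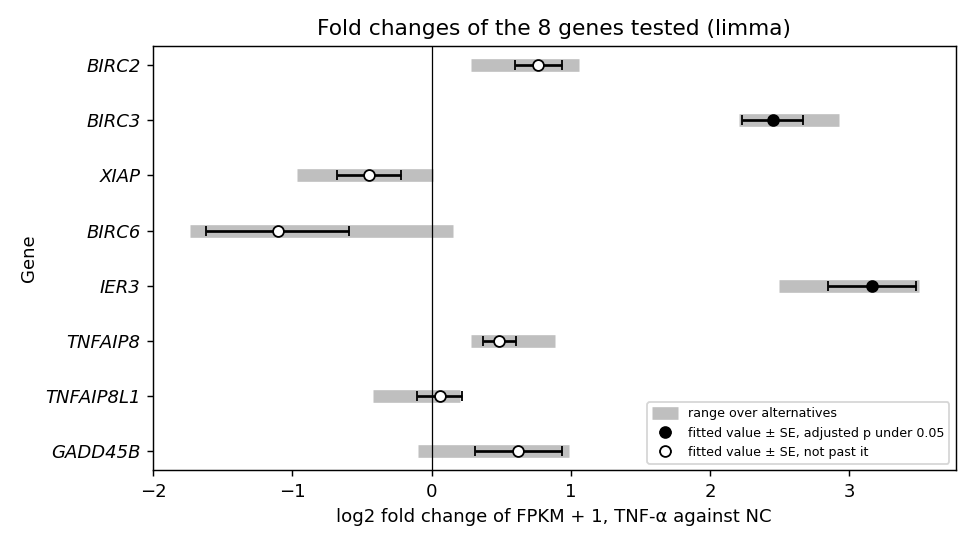
Points give the log2 difference of FPKM + 1 between TNF-α and NC with its SE for the 8 genes tested, filled where the adjusted p was under 0.05, and grey bars give the range over the alternative analyses. BIRC3 (2.20 to 2.93) and IER3 (2.49 to 3.50) stayed well above 0, and the bars of XIAP, BIRC6, TNFAIP8L1 and GADD45B reached both sides of it.

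The order of the levels changed between the groups. In the NC group BIRC2 (30.1 FPKM) was followed by GADD45B (24.6), XIAP (12.4), BIRC6 (9.73), TNFAIP8L1 (7.76), IER3 (6.04), BIRC3 (2.91), TNFAIP8 (1.01) and DIABLO (0.331), and no neighbours in this order overlapped in their libraries. In the TNF-α group IER3 (65.0 FPKM) was followed by BIRC2 (52.5), GADD45B (40.7), BIRC3 (21.0), XIAP (8.99), TNFAIP8L1 (8.21), BIRC6 (5.13), TNFAIP8 (1.82) and DIABLO (0.326). Here the ranges of IER3, BIRC2, GADD45B and BIRC3 overlapped from neighbour to neighbour, as did those of XIAP, TNFAIP8L1 and BIRC6. BIRC3 lay above every library of XIAP, whereas it had been below every one in the NC group. FPKM was computed on the length of all merged exons of a gene, so that a gene read mainly as a short transcript has a lower FPKM than its transcript would have.

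The 8 genes differed in how the 3 treated libraries were ordered, and exonic length was set beside this. Over all genes tested, the median log2 ratio to the NC mean in TNF-α replicates 2 and 3 was 0.63 and 0.52 for genes with under 2 kb of exon, 0.54 and 0.45 for 2 to 4 kb, -0.05 and -0.06 for 4 to 8 kb, -0.54 and -0.49 for 8 to 16 kb and -0.81 and -0.77 over 16 kb. In TNF-α replicate 1 these medians were between -0.03 and 0.00. GADD45B was at 1.01 and 0.95 in replicates 2 and 3 where its length class was at 0.54 and 0.45. XIAP was at -0.72 and -0.65, close to its class at -0.54 and -0.49, and BIRC6 was at -1.82 and -1.66, below its class at -0.81 and -0.77. TNFAIP8 was at 0.54 and 0.37 in the same class as XIAP. BIRC3 was at 2.19 and 2.23 and IER3 at 3.64 and 3.36, above the medians of their classes in each of the 3 treated libraries.

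**Figure D4:**
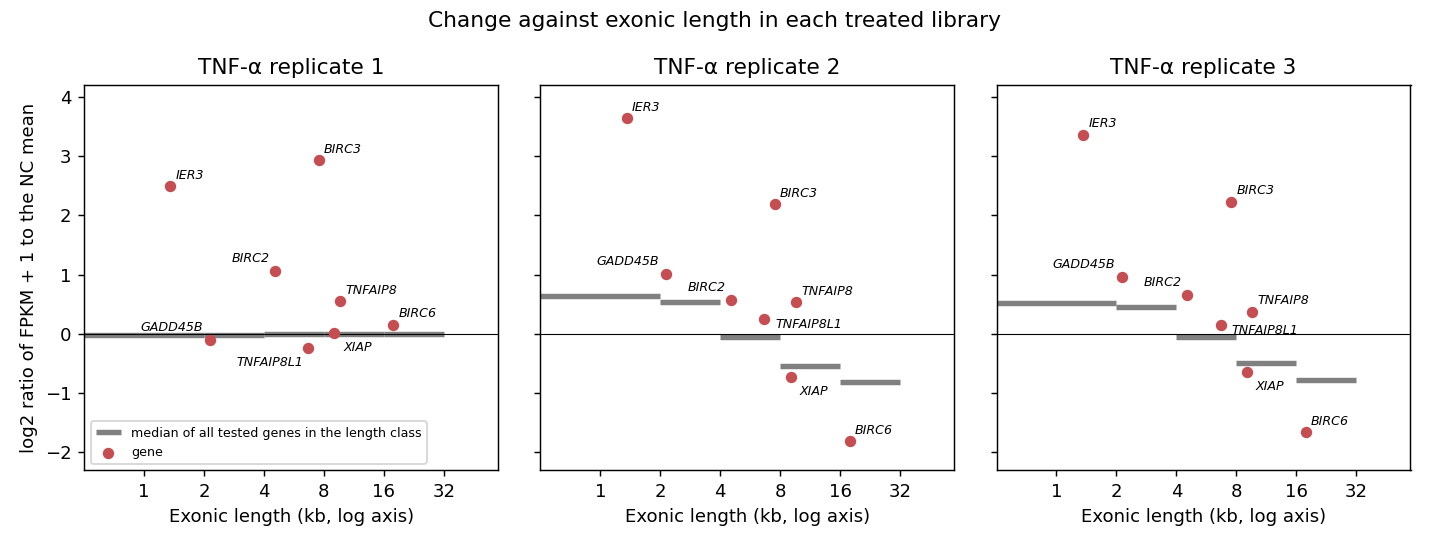
Each panel is 1 TNF-α library and shows the log2 ratio of FPKM + 1 to the NC mean (vertical) against exonic length in kb (log axis) for the 8 genes, with grey bars for the median of all tested genes in each length class (the outer classes are open-ended). The grey bars lie near 0 in replicate 1 and step down from 0.63 and 0.52 to -0.81 and -0.77 in replicates 2 and 3, while BIRC3 and IER3 lie far above them in all 3.

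After each library was corrected for GC content and exonic length over all genes, the 3 treated libraries lay closer together for 7 of the 8 genes. The correction was fitted on these same libraries, the treated ones included. It would therefore also remove a treatment effect tied to length or GC content. The closer libraries and the adjusted p after it are a description. BIRC3 was then at 2.90, 2.88 and 2.84 above the NC mean in TNF-α replicates 1 to 3, with a fitted log2 difference of 2.88 (adjusted p 0.000126). BIRC2 was at 1.04, 0.88 and 0.90 (fitted 0.94, adjusted p 0.00838), and IER3 was at 2.54, 2.68 and 2.62 (fitted 2.61, adjusted p 0.000456). XIAP was at -0.02, -0.08 and -0.05 (fitted -0.05, adjusted p 0.708), and GADD45B was at -0.08, -0.03 and 0.11. TNFAIP8 was at 0.52, 1.17 and 0.96 (fitted 0.88, adjusted p 0.0758), so its treated libraries moved apart. BIRC6 was still at 0.14 in replicate 1 against -0.97 and -0.85 in replicates 2 and 3 (fitted -0.56, adjusted p 0.215). With this correction 3 of the 8 passed, all higher, against 1.31% of all genes that passed and were higher.

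**Figure D5:**
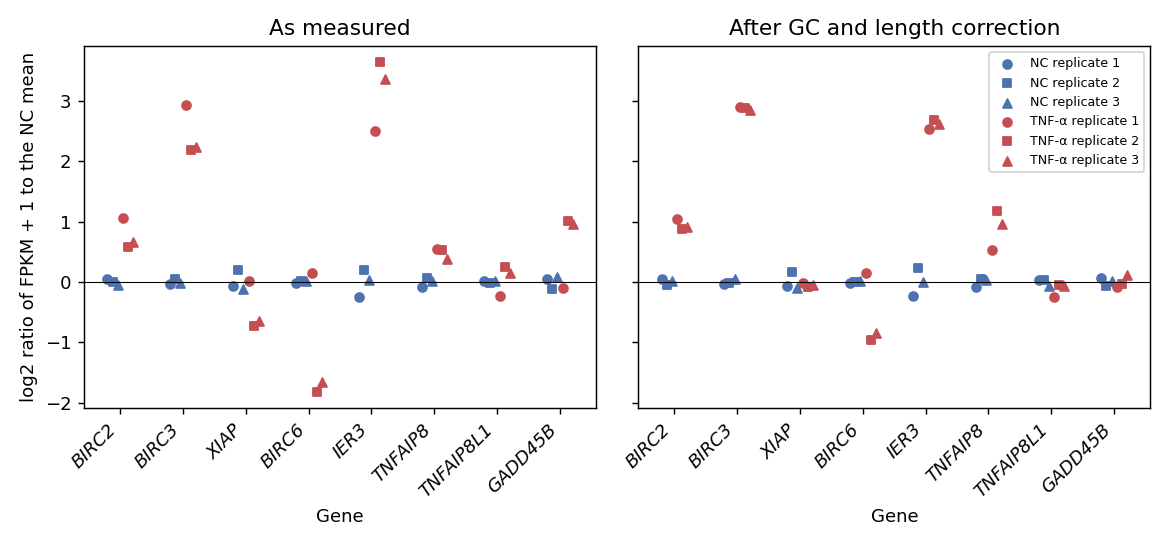
Points give the log2 ratio of FPKM + 1 to the NC mean for the 8 genes in each of the 6 libraries, as measured and after the correction for GC content and exonic length. After it the treated libraries of BIRC3 lie between 2.84 and 2.90, those of XIAP lie among the NC libraries, those of GADD45B lie between -0.08 and 0.11, and BIRC6 keeps replicate 1 at 0.14 and the other 2 at -0.97 and -0.85.

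Other genes of the pathway were taken from a list of 31 names grouped by role, of which 24 were tested and 4 passed, all higher, against 0.717% of all genes that passed and were higher. Their median log2 difference was 0.50, against 0.04 over all genes. Among adaptors and kinases of the cIAP complex 1 of 6 passed, TRAF1, an adaptor that binds TRAF2 and the cIAPs, at 1.16 ± 0.0981 against 22.2 ± 1.58 FPKM (NC and TNF-α mean ± SD, n = 3 per group, as for the genes that follow). TRAF2, TRAF3, TRADD, RIPK1 and MAP3K14 did not pass. Among other survival genes of the NF-κB response 3 of 5 passed. BCL2A1, which encodes a BCL2 family survival protein, was at 0.0866 ± 0.101 against 6.23 ± 3.29 FPKM, from 1 to 8 reads in the NC libraries. It met the filter only through the treated libraries, where it was high. Its call, and the counts and the median of the list that hold it, are therefore a description. The other two were TNFAIP3, which encodes the deubiquitinase A20 (3.93 ± 0.428 against 34.4 ± 20.5 FPKM), and SOD2 (ENSG00000112096), the mitochondrial superoxide dismutase (4.30 ± 0.0756 against 15.99 ± 5.00 FPKM). CFLAR, which encodes the caspase inhibitor cFLIP, had 2.84 ± 0.0382 against 4.49 ± 0.111 FPKM, without overlap and with an adjusted p of 0.112. BCL2L1 did not pass either (44.8 ± 2.835 against 96.95 ± 43.7 FPKM, limma adjusted p 0.195). It too was higher without overlap, as were 14.8% of all genes.

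Among the remaining IAP genes BIRC5 (survivin), the 1 member of its group tested, had 64.0 ± 0.559 against 101 ± 42.2 FPKM with overlapping groups, BIRC7 and BIRC8 were at 0 in all 6 libraries, and NAIP was at 0.0606 FPKM or less. None of the 3 IAP antagonists tested (HTRA2, XAF1 and AREL1) passed, 0 of the 3 had an unadjusted p under 0.05, and the groups overlapped in all of them. Of 4 further genes of the TNFAIP8 and GADD45 families 1 was tested. This was GADD45A, the stress-induced relative of GADD45B, which had 45.3 ± 3.49 against 77.7 ± 3.57 FPKM with an adjusted p of 0.0892. IER2, IER5 and IER5L share with IER3 the name of immediate early response genes and are not of its family. None of the 3 passed by limma, while 2 had an unadjusted p under 0.05, among them IER5 (21.4 ± 1.05 against 42.2 ± 9.88 FPKM, adjusted p 0.136). MAP2K7 and MAP3K4, kinases that GADD45B binds, did not pass (limma adjusted p 0.195 for each). Both had an unadjusted p under 0.05, as did 24.2% of all genes. MAP2K7 was higher without overlap and MAP3K4 lower without overlap, as were 14.8% and 15.3% of all genes. With 1 library left out, the number of genes of the whole list that passed was 1 in the absence of any one NC replicate or of TNF-α replicate 3. In these settings 0.14%, 0.0824%, 0.107% and 0.165% of all genes passed. The number was 2 without TNF-α replicate 2, where 0.346% of all genes passed. Without TNF-α replicate 1 it was 21, but there 79.4% of all genes passed. The number was also 1 with no filter and 1 with limma-voom on recovered reads, where 0.183% and 0.634% of all genes passed, and 2 under TPM (0.478%).

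The genes whose profile over the 6 libraries was most like that of the 2 genes past the threshold were then found, by the root mean square distance of log2(FPKM + 1) after subtraction of each gene's NC mean. For BIRC3 they were TNFRSF9 (distance 0.15), ESM1 (0.17) and IRAK2 (0.19), with log2 differences of 2.42, 2.27 and 2.24. For IER3 they were RELB (0.31), SLC12A7 (0.31) and NFKBIA (0.33), with log2 differences of 3.48, 3.03 and 2.79. TNFRSF9 was at 0.303 to 0.446 FPKM in the NC group and 5.20 to 7.72 FPKM in the TNF-α group. SLC12A7 was at 0.338 to 0.423 and 9.17 to 11.1 FPKM. Both met the filter only through the treated libraries, and the pseudocount of 1 shrinks their change more than that of BIRC3 or IER3. Because these genes were picked for their likeness over the same 6 libraries, their profiles are a description.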

How the data were processed

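RNA was sequenced in 6 libraries of U251 cells, 3 of the NC group and 3 of the TNF-α group. The authors deposited 1 table of FPKM per gene. Tools named in the submitters' processing notes, with no role given, were HISAT2 2.0.5, StringTie 1.3.3b, featureCounts 1.5.0 and GATK 3.7. DESeq2 and edgeR were named there too, without a version. All 58735 gene identifiers, names, positions and exonic lengths matched GENCODE release 29 on GRCh38. The table also held 6 columns of other samples, which were not used. FPKM times exonic length gave whole reads for every value within a tolerance of 0.01, which gave the depth per library. The library size implied by the deposited FPKM was 0.925 to 0.959 times the gene reads in 4 libraries and 0.693 and 0.759 times in TNF-α replicates 2 and 3, so the FPKM carry a scaling by the authors that is not given in the sources used here. A floor of 3 reads covers counting error only.

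Groups were taken from the labels. Genes with FPKM of at least 1 in at least 3 libraries were tested on log2(FPKM + 1), with a pseudocount of 1, by limma 3.58.1 in R 4.3.3 (lmFit, and eBayes with an intensity trend, two-sided), with Benjamini-Hochberg adjustment over all 12136 genes and a threshold of 0.05. An exact two-sided permutation test was run on single genes. The named genes were the 9 chosen by name, the pathway list where a role needed values, and the 3 genes with the most similar profile to each of the 9 past the threshold. Some genes of the pathway list are counted in its totals but not reported here. The genes, lists, tests and most alternatives were chosen with earlier results of these data known. The procedure was tested on simulated data, drawn for every library from the NC means without a length or GC shift. This test therefore cannot show how the procedure behaves under the shift of TNF-α replicates 2 and 3. The alternatives were other pseudocounts, filters and normalizations, limma-voom on recovered reads, corrections for length and GC content (splines with 5 degrees of freedom), the replicate number as a block, and each library left out. GC content was available for 58676 genes. Promoter windows came from RefSeq on GRCh38.p14. Python 3.11.15 with numpy 2.4.6, pandas 2.3.3, scipy 1.17.1 and matplotlib 3.10.9 was used.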

Additional observations from a re-analysis of the deposited data

How the results depend on the processing

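BIRC2, BIRC3, IER3 and TNFAIP8 kept a positive log2 difference under every alternative run, over 0.28 to 1.06, 2.20 to 2.93, 2.49 to 3.50 and 0.29 to 0.88. BIRC3 stayed past the threshold in 13 of 19 alternatives (adjusted p 4.3e-06 to 0.133) and IER3 in 15 of 19 (6.8e-06 to 0.125). The number of the 9 genes past the threshold, 2, became 1 under TPM, and ranged from 0 to 8 with each library left out, where 8 was reached without TNF-α replicate 1. The number whose groups did not overlap, 4 and all higher, ranged from 4 to 8 with each library left out. It was 3 under TPM (2 higher and 1 lower), where the groups of BIRC2 and TNFAIP8 overlapped. On recovered reads scaled to their library total it was 5 (4 higher and 1 lower). Shares of all genes without overlap were not computed for these settings, so nothing particular to the 9 genes is drawn from these counts. The count of 8 was that without TNF-α replicate 1, where 79.4% of all genes passed the limma test. The number of all genes past the threshold, 123, became 58 without a filter, 79 with a filter of 5 FPKM, 58 under TPM, 185 after quantile normalization, 77 with limma-voom on recovered reads, 253 after the GC and length correction and 732 without TNF-α replicates 2 and 3, and ranged from 10 to 9630 with each library left out. The sign changed for TNFAIP8L1 under TPM (-0.42), limma-voom (-0.20), the GC and length correction (-0.12), with TNF-α replicate 2 left out (-0.04) and with replicates 2 and 3 left out (-0.23), and for GADD45B under the GC and length correction (-0.0014) and without replicates 2 and 3 (-0.10), where XIAP (0.010) and BIRC6 (0.16) changed sign too. Over all genes, the median log2 difference was -0.42 under TPM and -0.21 with limma-voom. Without TNF-α replicate 1, where all 8 passed, the values of XIAP, BIRC6, TNFAIP8L1 and GADD45B were -0.68, -1.74, 0.20 and 0.98. The causes of these changes were not tested. With the replicate block, 24 genes passed in all and 1 of the 9, IER3 (adjusted p 0.0255), while BIRC3 had an adjusted p of 0.0545. The deviations of same-numbered libraries correlated at -0.01, -0.18 and 0.12 across genes, so the numbers were not taken to pair the libraries. With the block 1 gene of the pathway list passed. With 3 libraries per group the exact test cannot go below 0.1.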
